A study of Mus musculus with 4 samples.

Results

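The TNF superfamily ligands described here are 10 genes chosen by symbol from the 22865 of the count table: Tnfsf11, which encodes RANKL, with Tnfsf8, Tnfsf10, Tnfsf14, Tnfsf13b, Tnfsf12, Tnf, Lta, Ltb and Cd40lg. All 10 symbols stood in the table. RNA-seq counts came from γδ T cells of the lung that the submitters call Tgd17, sorted from 10-week-old female C57Bl/6 mice as viable CD45+ TCRb- TCRgd+ CD27- cells negative for Vg1,2,4,5. A pair of libraries was from Aire-/- mice and a pair from Aire+/+ mice, each made by Smart-Seq2 from 500 sorted cells. Aire is the thymic regulator that displays tissue-restricted proteins to developing T cells, and the genotype label names no tissue or promoter that limits the deletion. No treatment is given for either genotype. No label ties the libraries of a genotype to separate animals, and the p-values therefore rest on a spread between libraries that may be only technical.

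TNF superfamily ligands are mostly membrane proteins that assemble as trimers and act on receptors of neighbouring cells, and some are shed by proteases. Their receptors recruit TRAF adaptors or death domain proteins and drive NF-κB signalling, survival or cell death. Lymphotoxins organise lymphoid structures, RANKL drives osteoclasts and lymphoid tissue development, and BAFF and CD40L sustain and activate B cells.

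The libraries held 1106891 to 1265239 counts, and 16283 to 17423 genes had at least 1 count. Aire had 0 counts in all 4 libraries, so the targeted gene could not check the labels. No library was a copy of its partner, since the counts of each pair differed beyond sampling noise (chi-square over its degrees of freedom, 4.1 for Aire-/- and 4.0 for Aire+/+). Transcripts of other cells were present in every library. All 11 γδ T17 markers summed here, among them the CD3 chains, Il23r and Cd163l1, had a log2 fold change (Aire-/- minus Aire+/+) above 0. Their sums were 6473 and 7261 CPM in Aire-/- and 4456 and 6221 CPM in Aire+/+ libraries, most of each being Cd163l1. CPM are counts per library brought to 1 depth with the TMM factors. The CD3 chains overlapped between genotypes, at 923 and 1025 CPM in Aire-/- and 673 and 1098 CPM in Aire+/+ libraries. All 10 B cell markers had a log2 fold change below 0, with sums of 2287 and 3013 CPM against 2894 and 4594 CPM. In the ILC list 3 of 4 tested genes lay above 0 and in the macrophage list 5 of 6 below 0. The ILC list ranged from 1290 to 1394 CPM in Aire-/- and from 747 to 1172 CPM in Aire+/+ libraries, with Il13 at 0 counts in all 4. Most of that sum was Il7r, which γδ T17 cells also express, and the other 9 genes overlapped between genotypes, at 101 and 157 CPM in Aire-/- and 97.0 and 124 CPM in Aire+/+ libraries. The macrophage list ranged from 1185 to 1458 CPM in Aire-/- and from 1199 to 1497 CPM in Aire+/+ libraries. Ccr2, a chemokine receptor that T cells also express, was most of that sum except in Aire+/+ replicate 1, where it was 638 CPM. The other 9 genes of the list summed to 357 and 401 CPM in Aire-/- and 860 and 423 CPM in Aire+/+ libraries. The part of this mixture in the ligand values was not tested, and in such bulk samples fewer cells of a type and less RNA per cell cannot be told apart.

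The question of the design is how Aire deficiency alters expression in these cells. None of the 10 ligands was called higher or lower in Aire-/- libraries over all genes. Of the 10, 6 passed the filter on low counts, and edgeR's quasi-likelihood test called 0 of them at an adjusted p under 0.05, where it called 0.0204% of the 9783 genes tested. RANKL and LIGHT had the largest differences, at log2 fold changes of 1.41 and 0.85, and Tnf followed at 0.45. Ltb, Tnfsf10 and Lta lay at 0.22, 0.085 and -0.034. DESeq2 and limma-voom also called 0 of the 6, against 0.0307% and 0.0102% of all genes tested. At an unadjusted p under 0.05 there were 2 of the 6, Tnfsf11 and Tnfsf14, against 5.57% of all genes tested. The median log2 fold change of the 6 was 0.33, against 0.0099 over all genes tested, and 5 of 6 lay above 0 against 50.9% of all genes. The Aire-/- pair stood wholly above the Aire+/+ pair for 3 of the 6, against 17.1% of all genes in that direction, and below them for 0, against 17.3%. The ligands were chosen with earlier results of these data known, so these counts describe the list only.

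**Figure D1:**
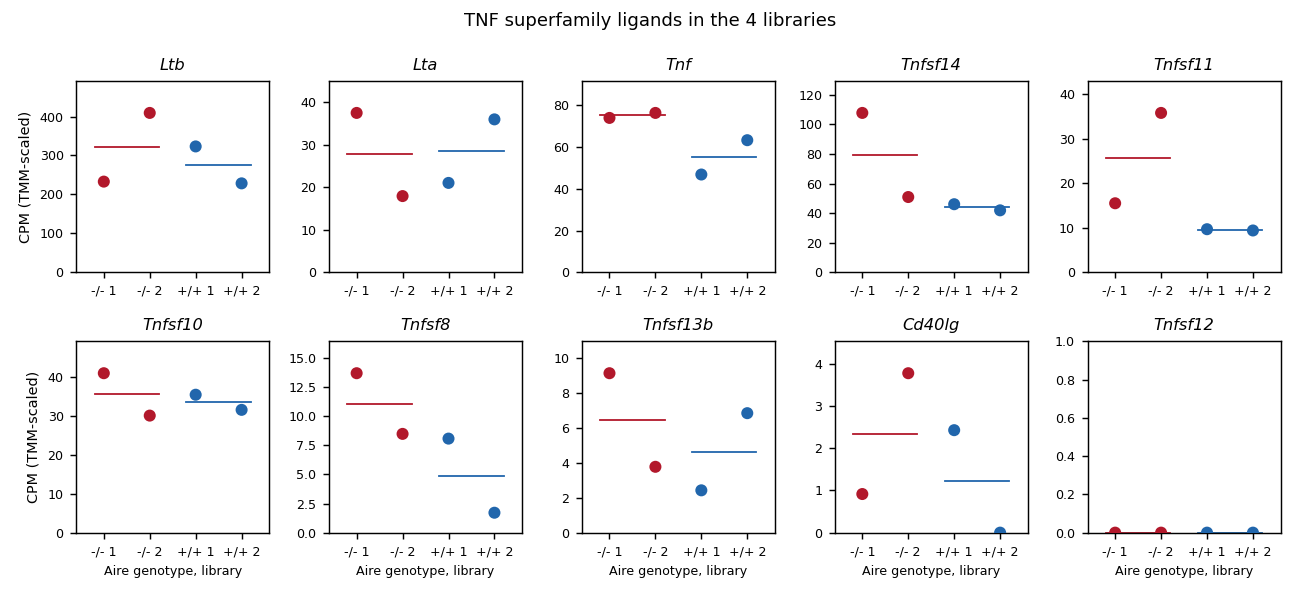
Level of each ligand gene in the 4 libraries, in CPM scaled by the TMM factors, with red points for Aire-/- and blue points for Aire+/+ libraries and a line at the mean of each pair. Each panel has its own axis from 0. The pairs are separate for Tnf, Tnfsf14, Tnfsf11 and, by a narrow gap, Tnfsf8, and overlap for Ltb, Lta and Tnfsf10.

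Sequence features were read for the ligand genes, since their choice by symbol did not use them. The nonamer TTATTTATT is an AU-rich element, the kind of site through which decay factors such as Zfp36 shorten the life of cytokine mRNAs. It occurred in the annotated 3′ UTR of 3 of the 10 ligands, Tnf, Lta and Tnfsf13b, against 7.7% of 19261 genes of the table with a 3′ UTR model in GENCODE M21. Tnf held 5 overlapping or separate copies, where 0.7% of genes held 3 or more, and Lta and Tnfsf13b held 1 each. The first match in each is shown 5′ to 3′ as DNA letters from GENCODE M21 transcripts, with the nonamers in capitals.
Tnf: tttgcacttaTTATTTATTATTTATTtat
Lta: aaaagttaagTTATTTATTtatagagaat
Tnfsf13b: attggcccatTTATTTATTgaattgtttg
No match says only that these letters are not in the annotated 3′ UTR, as for the other 7 ligands, Tnfsf11 and Ltb among them.

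RefSeq promoter sequences of GRCm38.p6 were matched for 8 of the 10 ligands, and the 250 bases before each start were searched on both strands. The TATA box was sought as TATAAA and the site of AP-1, the Fos and Jun factors of activation, as TGANTCA. STAT factors, which relay cytokine signals, were sought as TTCNNNGAA. Runx factors, regulators of lymphocyte development, were sought as TGTGGT. The core of the calcium-driven factor NFAT was sought as GGAAAA, the E-box as CANNTG, and NF-κB by its consensus. Shown are the most abundant ligand, Ltb, and the pair with the largest genotype differences, Tnfsf11 and Tnfsf14, each 5′ to 3′ along its own gene, with every match other than E-boxes in capitals; no capitalised match overlapped another.
Ltb, chr17:35194257-35194506, plus strand: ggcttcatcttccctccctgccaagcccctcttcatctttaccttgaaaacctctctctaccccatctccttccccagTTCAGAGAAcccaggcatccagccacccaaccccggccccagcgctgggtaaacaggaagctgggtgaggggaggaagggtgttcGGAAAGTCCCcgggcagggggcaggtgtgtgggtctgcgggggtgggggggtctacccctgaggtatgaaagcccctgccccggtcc
Tnfsf11, chr14:78308044-78308293, minus strand: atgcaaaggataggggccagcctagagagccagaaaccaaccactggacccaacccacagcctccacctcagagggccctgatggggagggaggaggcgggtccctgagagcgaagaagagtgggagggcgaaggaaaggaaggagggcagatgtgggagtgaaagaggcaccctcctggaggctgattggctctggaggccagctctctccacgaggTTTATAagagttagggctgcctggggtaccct
Tnfsf14, chr17:57194182-57194431, minus strand: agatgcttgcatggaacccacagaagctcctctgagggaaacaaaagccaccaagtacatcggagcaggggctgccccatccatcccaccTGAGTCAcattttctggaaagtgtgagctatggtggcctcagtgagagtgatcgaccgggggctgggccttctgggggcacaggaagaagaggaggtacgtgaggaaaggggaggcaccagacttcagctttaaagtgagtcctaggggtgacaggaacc
In Ltb the capitals mark a STAT match from -172 to -164 and an NF-κB match from -87 to -78. Positions are counted back from the RefSeq start, which for Ltb lies inside the GENCODE span given below. In Tnfsf11 the capitals mark TATAAA read on the opposite strand from -32 to -27, and in Tnfsf14 an AP-1 match from -160 to -154. Matches of these kinds stood in 7.0% (STAT), 7.3% (NF-κB), 12.4% (TATA box) and 6.7% (AP-1) of all 32851 promoter windows of that length. No match of Runx was found in the 9 windows of the 8 ligands, where 14.0% of all windows held one. The 2 ligands with the largest differences thus shared no capitalised match, and a match is a description of letters, not a binding site.

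Lta, Tnf and Ltb, the lymphotoxin α, TNF and lymphotoxin β genes, lie side by side on chromosome 17 (GRCm38) within the major histocompatibility complex. Ltb spans 35194439 to 35196320 on the plus strand, Tnf 35199381 to 35202007 and Lta 35203165 to 35205351 on the minus strand, and their exons share no bases with another gene of the table on the same strand. Ltb encodes the membrane anchor that holds lymphotoxin α at the cell surface. It was the most abundant of the 10 ligands, with 255 and 434 counts in Aire-/- and 400 and 267 counts in Aire+/+ libraries. Its ranks by count were 587, 280, 373 and 575 of 22865 genes in the same order, and it made up 43.7 to 65.3% of all counts of the 10 ligands. The groups overlapped, since the highest and the lowest count were both in Aire-/- libraries. Mean levels were 321 ± 125 CPM for Aire-/- and 276 ± 67.0 CPM for Aire+/+ (SD, n = 2 each). The log2 fold change was 0.22, with an approximate 95% interval of -0.36 to 0.80 (adjusted p = 0.98, edgeR). Its direction turned without Aire-/- replicate 2 (-0.25), without Aire+/+ replicate 2 (-0.012) and when libraries were scaled to the CD3 chains (-0.075).

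Tnf, the inflammatory cytokine that names the family, had 81 counts in each Aire-/- library and 58 and 74 counts in the Aire+/+ libraries, at ranks 2582, 2544, 3971 and 2980. Both Aire-/- libraries lay above both Aire+/+ libraries and within 1.03-fold of each other. The means were 75.2 ± 1.69 against 55.1 ± 11.6 CPM (SD, n = 2 each), a 1.36-fold difference beside one of 1.35-fold within the Aire+/+ pair. By edgeR the log2 fold change of Tnf was 0.45 with an SE of 0.29 (adjusted p = 0.94). Lta, the soluble lymphotoxin that also pairs with Ltb, had 41 and 19 counts in Aire-/- and 26 and 42 counts in Aire+/+ libraries, at ranks 4683, 7108, 6692 and 4871. Scaled to CPM, the highest (37.4) and the lowest (17.9) level of Lta were both in Aire-/- libraries, and the fold within the Aire-/- pair (2.09) exceeded that between the means (1.03). Its log2 fold change was -0.034 (approximate 95% interval -1.01 to 0.94, adjusted p = 0.99, edgeR), and it turned to 0.40 without Aire-/- replicate 2 and to 0.39 without Aire+/+ replicate 2. The 3 neighbours of the cluster thus gave different orders of the 4 libraries: Ltb was highest in Aire-/- replicate 2 and Lta lowest there.

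Tnfsf14 encodes LIGHT, which binds the herpesvirus entry mediator and the lymphotoxin β receptor and costimulates T cells. The gene lies on chromosome 17 (57189492 to 57194177, minus strand, GRCm38), away from the lymphotoxin cluster, and the complement gene C3, 9793 bases from it, had 0 counts in both Aire-/- and 11 and 2 counts in the Aire+/+ libraries. It had 118 and 54 counts in Aire-/- and 57 and 49 counts in Aire+/+ libraries, at ranks 1646, 3748, 4018 and 4316. Aire-/- replicate 1 stood alone at 108 CPM, while Aire-/- replicate 2 (50.9 CPM) lay just above the Aire+/+ libraries (46.1 and 41.9 CPM). The means were 79.3 ± 40.2 against 44.0 ± 2.93 CPM (SD, n = 2 each). By edgeR the log2 fold change of Tnfsf14 was 0.85 with an SE of 0.36 and an approximate 95% interval of 0.072 to 1.63 (adjusted p = 0.89). Without Aire-/- replicate 1 the log2 fold change was 0.22 and without Aire-/- replicate 2 it was 1.29. Per 100 counts of the CD3 chains Cd3d, Cd3e and Cd3g, LIGHT stood at 11.7 and 4.97 in Aire-/- and 6.84 and 3.82 in Aire+/+ libraries, so the genotypes overlapped on that scale.

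Tnfsf11 encodes RANKL, the cytokine that drives osteoclast differentiation and the development of lymph nodes and thymic medulla. It lies on chromosome 14 (78277445 to 78308043, minus strand, GRCm38) and overlaps no other annotated gene. It had 17 and 38 counts in Aire-/- and 12 and 11 counts in Aire+/+ libraries, at ranks 7619, 4869, 9057 and 9269. The Aire+/+ libraries were alike (9.70 and 9.41 CPM), and the Aire-/- libraries differed 2.31-fold from each other (15.5 and 35.8 CPM). The means were 25.7 ± 14.4 against 9.55 ± 0.202 CPM (SD, n = 2 each), 2.69-fold apart. The log2 fold change was 1.41 (SE 0.55, approximate 95% interval 0.23 to 2.60, unadjusted p = 0.023, adjusted p = 0.89, edgeR), which placed RANKL at position 244 by p among the genes tested. The ratio of summed counts, 55 against 23 and scaled to library size, was 2.67, and counting error alone gave an exact 95% interval of 1.61 to 4.55. Without Aire-/- replicate 2 the log2 fold change was 0.69 and without Aire-/- replicate 1 it was 1.90. Per 100 CD3 chain counts RANKL stood at 1.68 and 3.50 in Aire-/- and 1.44 and 0.857 in Aire+/+ libraries, without overlap.

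The genes most like RANKL over the 4 libraries, by Euclidean distance of mean-centred log2 CPM, were Minpp1, Ak3, Kcnk1, Tprn and Sgpp1, at distances of 0.19 to 0.26. Kcnk1, a potassium channel, was the most abundant of them, with 129 and 260 counts in Aire-/- and 99 and 102 counts in Aire+/+ libraries. None of the 5 was called over all genes, at adjusted p of 0.75 to 0.91 (edgeR). With 4 libraries and 9783 genes, near matches to any pattern can arise, and these names are a description.

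Tnfsf10 encodes TRAIL, a ligand that can trigger cell death through death receptors, on chromosome 3 (27317028 to 27342427, plus strand, GRCm38). It had 45 and 32 counts in Aire-/- and 44 and 37 counts in Aire+/+ libraries, at ranks 4396, 5396, 4893 and 5323. TRAIL was the steadiest of the tested ligands across all 4 libraries, with genotype means of 35.6 ± 7.73 and 33.6 ± 2.76 CPM (SD, n = 2 each) and overlapping groups. Its log2 fold change was 0.085 with an approximate 95% interval of -0.68 to 0.85 (adjusted p = 0.99, edgeR), so differences within that interval could not be told from 0.

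The other 4 ligands were too low to test. Tnfsf8 encodes the CD30 ligand of activated lymphocytes and had 15 and 9 counts in Aire-/- and 10 and 2 counts in Aire+/+ libraries, at ranks 8056, 9246, 9550 and 14012. Its values were separate only narrowly once scaled, at 8.49 CPM in Aire-/- replicate 2 and 8.08 CPM in Aire+/+ replicate 1, and its summed ratio was 2.23 (exact 95% interval 1.07 to 4.90, counting error only). Tnfsf13b encodes BAFF, the B cell survival factor made mainly by myeloid and stromal cells. It had 10 and 4 counts against 3 and 8 counts, at ranks 9309, 11312, 12678 and 10182, with overlapping groups and a ratio of 1.42 (0.599 to 3.46). Cd40lg encodes CD40L, the signal of helper T cells to B cells, and had 1 and 4 counts against 3 and 0 counts, at ranks 15364, 11312, 12678 and 17393. A total of 8 counts leaves its ratio between 0.362 and 12.0. Cd4, the co-receptor of helper T cells, was as low, at 2 to 5 counts per library. Of the other αβ T cell markers, Cd8b1 was as low, at 1 to 3 counts. Ccr7 (482 to 1527 counts), Tcf7 (36 to 92) and Lef1 (15 to 49) were higher. So were Cd8a (25 to 35 counts), Foxp3 (7 to 17) and Cd27 (5 to 15). On GRCm38, Tnfsf8 lies on chromosome 4 (63831308 to 63861347, minus strand), Tnfsf13b on chromosome 8 (10006467 to 10039072, plus strand) and Cd40lg on chromosome X (57212143 to 57224042, plus strand). Within 20 kb of the ligands, the tested neighbours Abhd13 beside Tnfsf13b (-0.16), Arhgef6 beside Cd40lg (0.13), and Senp3 (-0.30) and Eif4a1 (-0.071) beside Tnfsf12 were not called.

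Tnfsf12, which encodes TWEAK, a ligand of fibroblasts and other tissue cells, was listed at 0 counts in all 4 libraries, which allows up to 2.74 and 2.83 CPM in Aire-/- and 2.42 and 2.57 CPM in Aire+/+ libraries at 3 counts each. It lies on chromosome 11 (69686250 to 69695849, minus strand, GRCm38) beside Tnfsf13, the gene of APRIL, and the table also lists a read-through gene of the pair. All 3 were at 0 in every library. In GENCODE M21 the read-through and its neighbours share exons, which take in 48.3% of the exon bases of Tnfsf12. How reads in shared exons were counted is not given in the sources used here, so the 0 of Tnfsf12 cannot be told apart from reads that were not assigned.

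Levels between genes were compared as CPM per kb of annotated exon, which assumes even coverage along the transcripts. Ltb led with 197 CPM per kb on average over the 4 libraries (range 151 to 270), rank 171 of 22465 genes with a length. Tnf (39.7, range 28.6 to 46.6), Tnfsf14 (33.4, range 22.7 to 58.4) and Lta (20.3, range 12.95 to 27.08) followed. Tnfsf11 (7.88, range 4.21 to 16.0) and Tnfsf10 (6.58, range 5.73 to 7.80) came next, ahead of Tnfsf8 (2.10), Cd40lg (1.42) and Tnfsf13b (0.807). Ltb did not overlap with Tnf, nor Tnfsf10 with Tnfsf8, whose highest library was 3.599 CPM per kb. The neighbours Tnf and Tnfsf14, Tnfsf14 and Lta, Lta and Tnfsf11, and Tnfsf11 and Tnfsf10 overlapped, as did Tnfsf8, Cd40lg and Tnfsf13b, so their order is not fixed by these libraries. The order was the same with the length of the longest transcript.

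**Figure D2:**
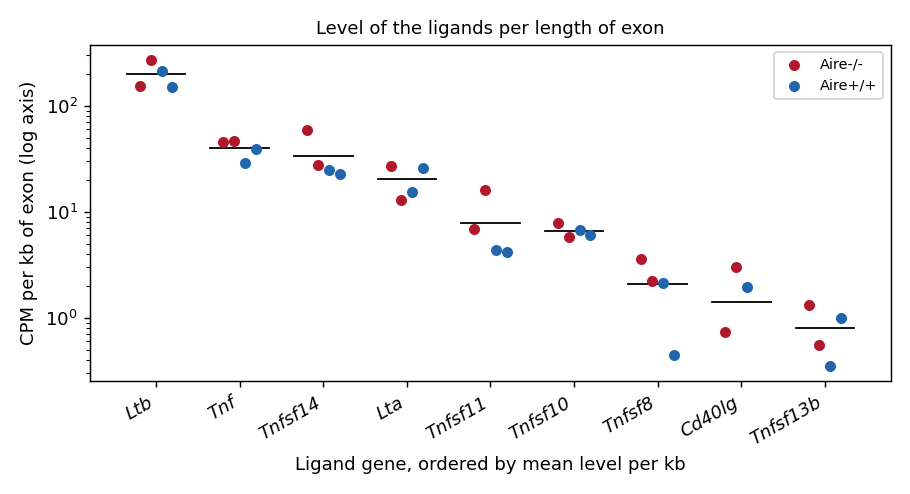
Level of each ligand in CPM per kb of exon on a log axis, with 1 point per library, red for Aire-/- and blue for Aire+/+, and a line at the mean of the 4. Ltb stands clear at 151 to 270, the next 5 genes overlap in a chain, and the 0 values of Tnfsf12 and of Cd40lg in Aire+/+ replicate 2 are not drawn.

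The receptors of the same ligands were read in the same libraries. Of 28 TNF superfamily receptors 17 were tested and 0 were called over all genes, with 10 above and 7 below 0 and a median log2 fold change of 0.091. An unadjusted p under 0.05 (edgeR) was reached by 1 on the higher and 2 on the lower side, against 5.57% of all genes tested. DESeq2 and limma-voom called 0 of the 17, and edgeR called 0.0204% of all genes tested. Tnfrsf1b, the TNF receptor of lymphocytes also known as TNFR2, was the most abundant, with 319 and 597 counts in Aire-/- and 344 and 413 counts in Aire+/+ libraries. Per length it stood at 97.3 CPM per kb (range 72.8 to 147), above the widely expressed Tnfrsf1a at 9.04 (range 5.29 to 13.9) in every library. Tnfrsf25, the death receptor of T cells that binds the Tnfsf15 product, was next, with 191 to 232 counts in all 4 libraries and a log2 fold change of 0.091. Tnfrsf10b, the mouse TRAIL receptor, had 117 and 81 counts in Aire-/- and 56 and 87 counts in Aire+/+ libraries (log2 fold change 0.62, adjusted p = 0.91, edgeR), and the genotypes were parted by a narrow gap, 76.4 against 74.4 CPM.

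Tnfrsf11a, which encodes RANK, the receptor of RANKL, had 55 and 30 counts in Aire-/- and 35 and 48 counts in Aire+/+ libraries, with overlapping groups (log2 fold change 0.18, adjusted p = 0.99, edgeR). Tnfrsf11b, the decoy receptor osteoprotegerin, had 6 counts in Aire-/- replicate 1 and 0 in the other libraries. RANKL and RANK transcripts were thus found in the same libraries, and which cells carried each was not tested. Tnfrsf14, the herpesvirus entry mediator that binds LIGHT, had 11 and 17 counts against 22 and 26 counts (-0.61). Ltbr, the lymphotoxin β receptor of stromal and myeloid cells, had 3 counts in Aire+/+ replicate 1 and 0 elsewhere, while its ligand gene Ltb was the most abundant of the 10. Tnfrsf8, which encodes CD30, had 1 and 0 counts against 8 and 2, and Tnfrsf12a, the TWEAK receptor, 4 and 9 against 6 and 8.

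Receptors of BAFF and CD40L are expressed by B cells, though not by B cells alone. Tnfrsf13b, which encodes the BAFF and APRIL receptor TACI, had 9 and 11 counts in Aire-/- and 47 and 22 counts in Aire+/+ libraries (log2 fold change -1.60, SE 0.52, adjusted p = 0.83, edgeR). Cd40 had 27 and 28 counts against 67 and 49 counts (-0.91, adjusted p = 0.89), and in both genes the Aire-/- values lay below the Aire+/+ values. Tnfrsf13c, the BAFF receptor, had 93 and 54 counts against 106 and 89 counts (-0.25), and Tnfrsf17, the plasma cell receptor BCMA, 0 to 2 counts per library. The 10 B cell markers given above also had log2 fold changes below 0, but their sums overlapped between genotypes. Counts of Ms4a1, Cd79a and Cd79b per CD3 chain count overlapped too, at 1.48 and 0.999 in Aire-/- and 3.10 and 1.22 in Aire+/+ libraries. The part of B cells in these receptor values was not tested. Fas, the death receptor of activated lymphocytes, had 41 and 20 counts against 11 and 14 counts (1.43, SE 0.51, adjusted p = 0.89, edgeR), the largest positive log2 fold change of the tested receptors.

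Of the 8 other TNF superfamily ligands 2 were tested and 0 called by edgeR, DESeq2 or limma-voom, where edgeR called 0.0204% of all genes tested. An unadjusted p under 0.05 (edgeR) was reached by 0 of the 2, against 5.57% of all genes tested. Tnfsf15, whose product binds Tnfrsf25, had 17 and 16 counts in Aire-/- and 10 and 7 counts in Aire+/+ libraries (1.11, SE 0.60, adjusted p = 0.91, edgeR). Fasl, the ligand of Fas, had 4 and 35 counts against 51 and 38 counts, and Aire-/- replicate 1 stood apart from the other 3 libraries. Its log2 fold change was -1.01 (adjusted p = 0.93, edgeR), and without Aire-/- replicate 2 it was called lower (-3.30, adjusted p = 0.0022, with the lone Aire-/- library assumed to vary like the Aire+/+ pair). Tnfsf9, the 4-1BB ligand, had 5 and 2 counts against 10 and 12 counts and was too low to test.

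Downstream of the receptors, 25 of 25 signalling genes were tested and 0 called, with 13 above and 12 below 0 and a median of 0.065. An unadjusted p under 0.05 (edgeR) was reached by 1 gene on each side, against 5.57% of all genes tested. DESeq2 and limma-voom called 0 of the 25, and edgeR called 0.0204% of all genes tested. Tnfaip3, the deubiquitinase A20 that restrains NF-κB and is itself induced by it, was the most abundant, with 603 and 851 counts in Aire-/- and 594 and 580 counts in Aire+/+ libraries (0.47, SE 0.20, adjusted p = 0.89, edgeR). Cflar, the caspase-8 inhibitor cFLIP, had 205 and 163 counts against 156 and 146 counts (0.44), and Sharpin, a subunit of the linear ubiquitin ligase, 28 and 49 against 78 and 80 counts (-0.87). Birc3, a ubiquitin ligase that binds TRAF adaptors, lay at -0.29 and Rbck1, another subunit of the linear ubiquitin ligase, at 0.19. The values ran in both directions around the median of all genes.

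Of 15 genes of ligand processing and mRNA decay 14 were tested and 0 called, with 8 above and 6 below 0 and a median of 0.099. An unadjusted p under 0.05 (edgeR) was reached by 2 genes, both on the lower side, against 5.57% of all genes tested. DESeq2 and limma-voom called 0 of the 14, and edgeR called 0.0204% of all genes tested. Rhbdf2, which encodes iRhom2, the partner that brings the TNF sheddase to the cell surface, had 24 and 24 counts in Aire-/- and 67 and 59 counts in Aire+/+ libraries (-1.23, SE 0.34, adjusted p = 0.75, edgeR). Adam17, the TNF sheddase itself, had 108 and 120 counts against 214 and 163 counts (-0.56, SE 0.23, adjusted p = 0.89, edgeR). In both genes the Aire-/- values lay below the Aire+/+ values, while Tnf lay on the other side, and none of the 3 was called. Hnrnpd, a protein that binds AU-rich elements, lay at -0.74 and Zfp36, the decay factor tristetraprolin, at -0.49. Among others of the list, Khsrp (0.22) and Zfp36l2 (0.20) lay above 0 and Elavl1 (-0.15) and Zc3h12a (-0.49) below 0. The more abundant Rc3h1 (0.28), Sppl2a, a protease that cleaves the membrane stub of TNF (0.25), and Zfp36l1 (0.11) lay above 0.

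**Figure D3:**
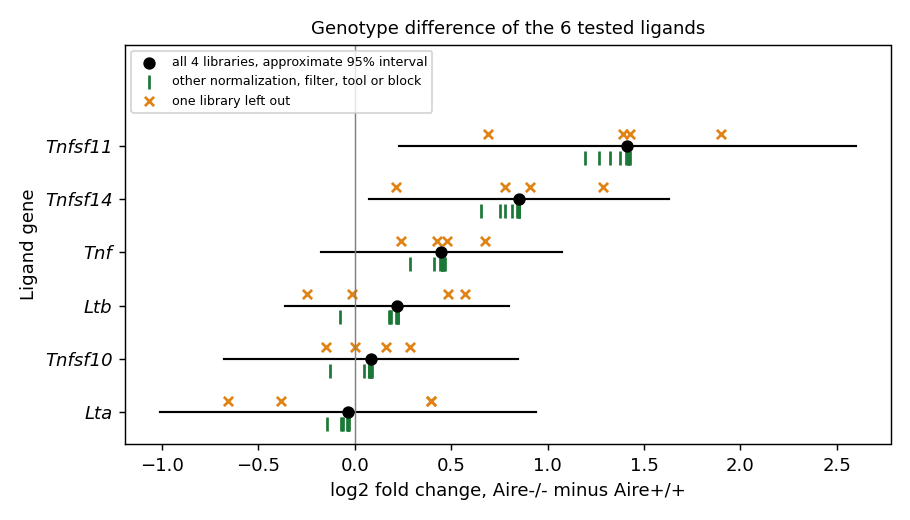
Log2 fold change of the 6 tested ligands, Aire-/- minus Aire+/+, with black points and bars for the fit of all 4 libraries and its approximate 95% interval, green ticks for other normalizations, filters, tools or the replicate block, and orange crosses for fits with 1 library left out. Tnfsf11 spans 0.69 to 1.90 and Tnfsf14 0.22 to 1.29 over these settings, and Ltb, Tnfsf10 and Lta cross 0.

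**Figure D4:**
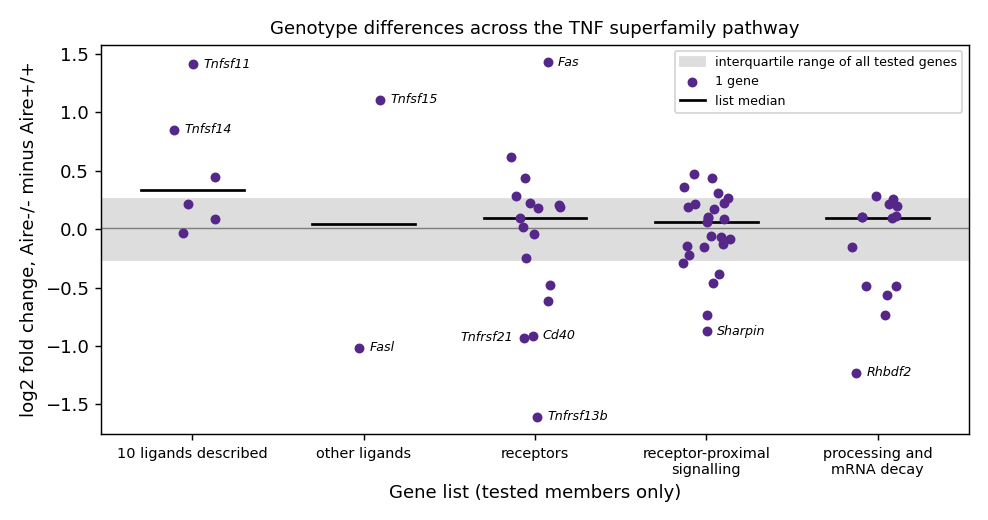
Log2 fold change (Aire-/- minus Aire+/+) of every tested gene in 5 lists, 1 point per gene, with the list median as a line and the interquartile range of all tested genes shaded grey. The medians are 0.33 for the 6 tested of the 10 ligands and 0.047 for the 2 tested of the other ligands. They are 0.091 for receptors, 0.065 for signalling and 0.099 for processing and decay, and no plotted gene passed the test over all genes.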

How the data were processed

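The deposited file is a single table of raw counts, with gene symbols as rows and a column for each of the 4 libraries, per the file headers. TopHat2 2.0.10, Cufflinks 2.2.1 and mm10 are named without role, per the submitters' processing notes. How the counts were made (tool, annotation, strand) is not given in the sources used here, and reads of overlapping genes cannot be told apart. Smart-Seq2 reads carry no molecular identifiers, and intervals and floors of 3 counts cover counting error only.

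Counts were tested with edgeR 4.0.16 (R 4.3.3): TMM scaling, genes kept by filterByExpr at a minimum count of 10 and a total of 15, a quasi-likelihood F test on genotype, and Benjamini-Hochberg adjustment over 9783 genes, called at an adjusted p under 0.05. SEs are approximate (absolute log2 fold change over the square root of F), and the 95% intervals use the test's degrees of freedom. Distances used log2 CPM with a prior count of 2. Alternatives used DESeq2 1.42.0 and limma 3.58.1, other scalings and filters, a replicate block and single libraries left out. The fit was tested on simulated data. Exon lengths came from GENCODE M21 (22465 symbols matched, 21591 of them by their own symbol and the rest through RefSeq synonyms).

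The ligands and lists were chosen with earlier results of these data known. Named are all 10 ligands and their receptors, in each pathway list the 3 genes with the smallest p and the 3 most abundant, the 5 genes nearest to Tnfsf11, and genes adjoining a ligand. Ltbr, Tnfrsf11b, Tnfrsf8, Tnfrsf12a and Tnfrsf17 are named as receptors, and Zfp36 and Cd4 were added after their values were seen. The other αβ T cell markers, and Khsrp, Zfp36l2, Elavl1 and Zc3h12a, are named beside them and also fall outside the rule. Summed levels of 5 further cell lists follow: plasma cell, dendritic cell, αβ T cell, natural killer cell, and epithelial, endothelial and fibroblast markers. In that order they were 440 to 591, 3808 to 4586, 577 to 838, 123 to 273 and 125 to 140 CPM in Aire-/- libraries. In Aire+/+ libraries they were 1310 to 1889, 5761 to 9167, 784 to 1354, 233 to 331 and 166 to 181 CPM. The plasma cell gap was Igj, without which the other 5 genes summed to 440 and 587 CPM in Aire-/- and 537 and 602 CPM in Aire+/+ libraries. Most of the dendritic cell sum was class II genes, which B cells share, and most of the αβ T cell sum was Ccr7. An item of the marker lists is not reported here.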

Additional observations from a re-analysis of the deposited data

How the results depend on the processing

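No ligand was called under any of the 13 alternatives, and Tnfsf11, Tnfsf14 and Tnf kept their direction in all of them, with log2 fold changes of 0.69 to 1.90, 0.22 to 1.29 and 0.24 to 0.68. The smallest adjusted p was 0.11 for Tnfsf14 without Aire-/- replicate 2 and 0.22 for Tnfsf11 without Aire-/- replicate 1, where the ranges over alternatives ran up to 1.00. With 1 library left out, Tnfsf10 ranged from -0.15 to 0.29, Ltb from -0.25 to 0.57 and Lta from -0.66 to 0.40. Scaled to the CD3 chains, which moved the median of all genes by -0.21, Tnfsf10 was -0.13 and Ltb -0.075, both below 0 but above that median. The cause was not tested.

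Over all genes, 0 were called higher and 2 lower. Without a filter 21 and 26 were called among 20402 genes, with the CD3 scaling 4 lower, and with limma-voom 1 lower. With 1 library left out, 5 to 21 were called higher and 6 to 42 lower, and 0 to 1 of the other ligand, receptor and signalling genes, the 1 being Fasl. Libraries of the same replicate number showed no shared deviation (correlation of deviations -0.077), a value that cannot tell whether they were handled together. With the replicate block 2 genes were called higher and 4 lower, with no ligand among them. Genes under about 10 counts fell below the filter, 4 of the 10 ligands among them.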

Other observations

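Overlap of gene models and listed zeros went together in the table. Among protein-coding genes that share under 0.1% of their exon bases with another listed gene on the same strand in GENCODE M21, 9.98% of 19919 were at 0 in all 4 libraries. The share was 11.6% of 430 genes with 0.1 to 50% shared, 32.8% of 64 genes with 50 to 95% shared and 68.2% of 22 genes with at least 95% shared. Tnfsf12 shares 48.3% of exon bases, which places it in the range where 11.6% of genes were at 0, near the 9.98% above. Tnfsf13 shares 60.05% and the read-through of both 76.7%, and all 3 were at 0. The annotation behind the deposited counts is not given in the sources used here.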
